A study of Mus musculus with 2 samples.

Results

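The GABA-B receptor, its auxiliary KCTD subunits and the potassium channels it opens were described through 8 genes, Gabbr1, Gabbr2, Kctd8, Kctd12, Kctd16, Kcnj3, Kcnj6 and Kcnj9, taken by symbol from the 30431 genes of the count matrices. Their expression was measured by single-nucleus RNA sequencing of dorsal CA1, a field of the mouse hippocampus, in 1 epilepsy library and 1 control library, and the study set the epileptic condition against the control condition for the sublayers of CA1 pyramidal neurons. The epilepsy group was made of male C57BL/6J mice of the cross Calb1::Cre x Tdtomato, aged 6 to 7 weeks, which received repeated intraperitoneal kainate (5 mg/kg), an agonist of glutamate receptors, until status epilepticus, a state of continuous seizures, and then diazepam (4 mg/kg). The control group was made of males of the same strain, cross and age that received vehicle, either saline or DMSO. Both groups thus carried the Cre driver at Calb1, a gene of superficial pyramidal neurons, together with the reporter, and nuclei of both were isolated and sorted 12 weeks later. The labels name 2 mice per condition and do not say whether a library holds nuclei of 1 or of both. With 1 library per condition, no difference between the conditions has a replicate check, no test was possible, and each interval below is a 95% interval that covers counting error only.

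GABA-B receptors are G-protein-coupled receptors for the inhibitory transmitter GABA, and they work as heterodimers in which the GABA-B1 subunit (Gabbr1) binds the ligand and the GABA-B2 subunit (Gabbr2) couples to Gi/o proteins. KCTD proteins bind GABA-B2 and set the speed and desensitization of the response. The released G-protein beta-gamma dimers open G-protein-gated inward rectifier potassium (GIRK) channels, tetramers built from GIRK1 (Kcnj3), GIRK2 (Kcnj6) and GIRK3 (Kcnj9), which hyperpolarize dendrites of hippocampal neurons, while presynaptic receptors inhibit calcium channels and transmitter release.

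Promoter windows of 3 genes are shown because Gabbr2 was higher and Kcnj3 lower in epilepsy pyramidal nuclei and Kctd8 was found mainly in interneurons. Each runs 5' to 3' from 250 bases before the RefSeq transcript start to 50 bases after its first base (GRCm38.p6). Capitals mark matches on either strand to the GC box (GGGCGG) or the cyclic AMP response element (TGACGTCA), and no match of one overlapped the other.
Gabbr2 chr4:46991665-46991964 (minus strand): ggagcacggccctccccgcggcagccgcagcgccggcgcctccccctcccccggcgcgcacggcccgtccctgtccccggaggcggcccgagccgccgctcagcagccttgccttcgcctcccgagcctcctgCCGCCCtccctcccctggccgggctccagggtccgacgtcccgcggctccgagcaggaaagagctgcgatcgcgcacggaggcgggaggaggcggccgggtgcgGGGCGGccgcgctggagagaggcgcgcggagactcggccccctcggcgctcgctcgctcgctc
Kcnj3 chr2:55435720-55436019 (plus strand): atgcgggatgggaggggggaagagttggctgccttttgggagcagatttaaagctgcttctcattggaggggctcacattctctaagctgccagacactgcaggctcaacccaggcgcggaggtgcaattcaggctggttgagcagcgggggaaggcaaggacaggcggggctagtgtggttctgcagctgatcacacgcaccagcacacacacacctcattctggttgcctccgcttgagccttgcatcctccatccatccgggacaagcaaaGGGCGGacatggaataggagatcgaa
Kctd8 chr5:69341660-69341959 (minus strand): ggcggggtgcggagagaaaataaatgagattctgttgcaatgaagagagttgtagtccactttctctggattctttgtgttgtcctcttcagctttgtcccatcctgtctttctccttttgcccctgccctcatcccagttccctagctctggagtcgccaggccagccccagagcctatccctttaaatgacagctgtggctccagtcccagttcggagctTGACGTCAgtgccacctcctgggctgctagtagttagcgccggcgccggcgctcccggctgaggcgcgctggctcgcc
The GC box was found in 5 of the 8 windows read for 7 of the 8 genes, and in 35.7% of all 32851 promoter windows of that length. The cyclic AMP response element was found in 1 of the 8, that of Kctd8, and in 1.79% of all windows. An AP-1 site (TGANTCA, N being any base) was in 0 of the 8 and in 7.81% of all windows. A match is a run of letters and was not tested for binding.

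The 8 genes lie on 8 chromosomes of GRCm38, by the GENCODE M21 annotation. Gabbr1 (ENSMUSG00000024462) lies at chr17:37045966-37075067 on the plus strand and spans 29.1 kb, and Gabbr2 (ENSMUSG00000039809) lies at chr4:46662305-46991873 on the minus strand and spans 329.6 kb. Among the auxiliary subunits, Kctd8 (ENSMUSG00000037653) spans 232 kb at chr5:69109285-69341679 on the minus strand, Kctd16 (ENSMUSG00000051401) spans 275 kb at chr18:40256962-40531630 on the plus strand, and Kctd12 (ENSMUSG00000098557) spans 6.06 kb at chr14:102976581-102982637 on the minus strand. The channel gene Kcnj3 (ENSMUSG00000026824) covers 162 kb at chr2:55435970-55598145 on the plus strand. Kcnj6 (ENSMUSG00000043301) covers 249 kb at chr16:94748636-94997701 and Kcnj9 (ENSMUSG00000038026) covers 8.82 kb at chr1:172320501-172329318, both on the minus strand. Nuclear RNA is rich in unspliced transcripts, so UMIs of long and short genes are not on 1 scale, and each gene below is compared with itself only. An annotated antisense gene overlaps Kctd8, Kctd12, Kctd16, Kcnj3, Kcnj6 and Kcnj9, gene models of unclear status overlap Kctd8 and Kctd16 on their own strand, and a miRNA gene does so for Kctd12, so their counts could hold or lose reads of those neighbours.

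The epilepsy library held 3078 nuclei with 7112131 UMIs (unique molecular identifiers, each standing for 1 captured RNA molecule), a median of 2443 per nucleus, and the control library 3661 nuclei with 11858162 UMIs, a median of 3447. They shared 16 cell barcodes. After likely doublets were removed, 2986 epilepsy and 3551 control nuclei were clustered without the 8 genes and the related pathway genes, so that levels across classes did not enter the clustering. Classes were named by markers and are called pyramidal, interneuron and so on in the sense of pyramidal-like and interneuron-like. They held 2339 epilepsy and 2841 control CA1 pyramidal nuclei, 144 and 198 interneurons, 14 and 154 dentate granule nuclei, 313 and 221 oligodendrocytes, 38 and 24 oligodendrocyte precursors (a cluster that also carried genes of committed precursors), 28 and 27 astrocytes, and 39 and 36 microglia. Interneurons were split into those with Adarb2, a marker of interneurons born in the caudal ganglionic eminence (86 epilepsy and 115 control nuclei), and those without it (58 and 83), which carried Lhx6, Sst and Sox6. CPM are the UMIs of a gene divided by all UMIs of the class in that library, times 1000000. The clusters counted as with Adarb2 differed in that gene. Over both libraries it stood at 19379 CPM in the cluster led by Adarb2 and Dlx6os1. In the cluster led by Adra1a and Fgf13 it stood at 2941 CPM, beside 3069 CPM in granule nuclei. UMIs of pyramidal markers were also counted outside pyramidal nuclei. The 9 markers summed to 3344 CPM in epilepsy and 3208 CPM in control pyramidal nuclei, against 1712 and 1896 CPM in oligodendrocytes and 796 and 782 CPM in interneurons. Of these markers, Neurod6 and Wfs1 had 0 UMIs in interneurons without Adarb2 of both libraries. How far the sums stand for RNA of pyramidal neurons was not tested.

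Each gene had its own distribution over the classes. Kcnj6 was highest in dentate granule and pyramidal nuclei, Kctd16 and Gabbr2 reached their highest levels in interneurons with Adarb2 or in granule nuclei, Kctd8 was an interneuron gene with almost no signal in pyramidal nuclei, and Gabbr1 was counted in neurons and glia alike, at lower control levels in interneurons and granule nuclei than in pyramidal nuclei. In the control library its interneuron level was 0.646-fold (0.510 to 0.807) and its granule level 0.677-fold (0.480 to 0.929) the pyramidal level. Over the series the epilepsy and control libraries held 1396 and 2067 UMIs of Gabbr1, 3219 and 4017 of Gabbr2, 238 and 365 of Kctd8, 13 and 38 of Kctd12, 6173 and 14628 of Kctd16, 2030 and 4659 of Kcnj3, 3472 and 5802 of Kcnj6, and 76 and 189 of Kcnj9. Kctd12 and Kcnj9 were therefore close to the limit of detection in most classes.

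**Figure D1:**
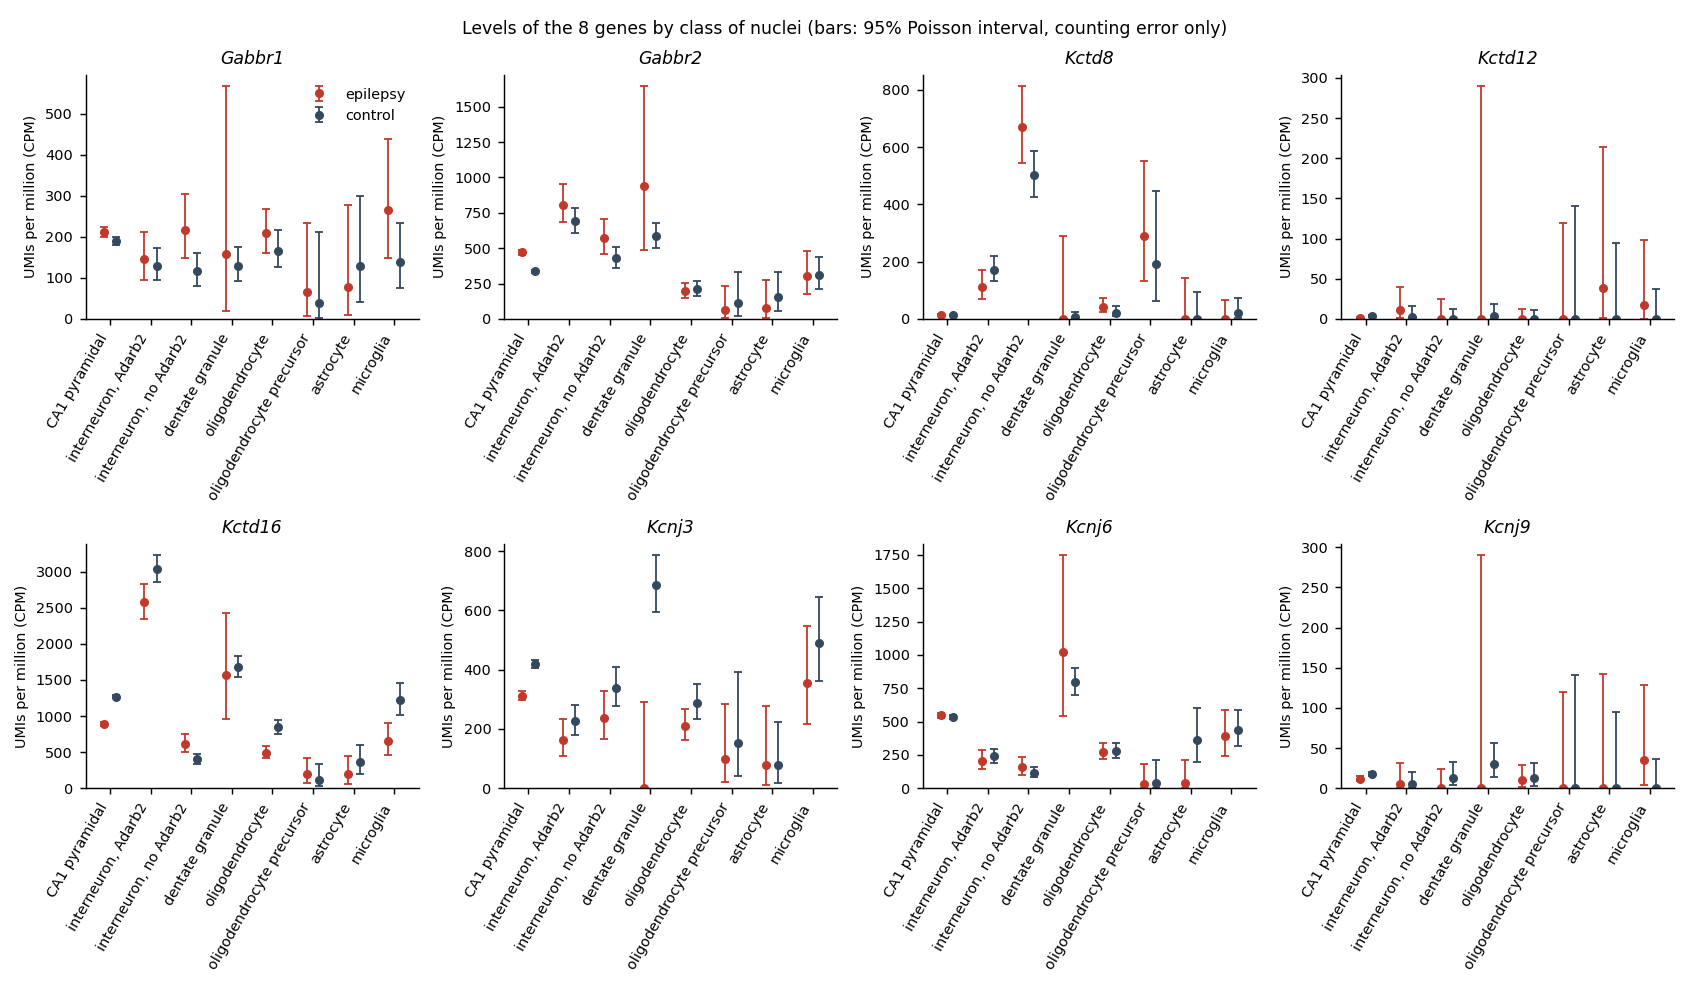
Level of each gene (y axis, CPM, linear from 0) in 8 groups of nuclei (x axis), with the epilepsy library in red on the left of each pair and the control library in dark blue on the right; points are class sums and bars are 95% Poisson intervals. Kctd8 stands out in interneurons without Adarb2 (669 CPM in epilepsy, 502 CPM in control) and Kctd16 in interneurons with Adarb2 (2576 and 3037 CPM).

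Gabbr1, the ligand-binding subunit, was at 211 CPM (199.7 to 224) in epilepsy and 189.9 CPM (181 to 199) in control pyramidal nuclei. In interneurons it was at 178 (135 to 229) and 123 CPM (97.3 to 152). Granule nuclei held 157 CPM (19.0 to 567) in the epilepsy library, on 2 UMIs, and 129 CPM (91.4 to 176) in the control library. Among the control classes the pyramidal level was the highest, followed by oligodendrocytes at 166 CPM (125 to 216), whose interval overlapped it. Microglia at 139.6 CPM (76.3 to 234), granule nuclei, astrocytes at 128 CPM (41.6 to 299) and interneurons came next, with intervals that overlapped each other. In the epilepsy library microglia at 266 CPM (149 to 438), pyramidal nuclei and oligodendrocytes at 209 CPM (161 to 267) were the 3 highest classes, with overlapping intervals. The Gabbr1 level of oligodendrocytes was 98.9% of the pyramidal level in the epilepsy library and 87.6% in the control library, while the pyramidal markers there stood at 51.2% and 59.1% of theirs.

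Gabbr2, the subunit that couples to G proteins, was higher in interneurons than in pyramidal nuclei of both libraries. Pyramidal nuclei held 469.9 CPM (453 to 488) in epilepsy and 336 CPM (325 to 348) in control, and interneurons 699 (612 to 795) and 570.4 CPM (514 to 631), which is 1.49-fold (1.30 to 1.70) and 1.70-fold (1.52 to 1.89) the pyramidal level. Granule nuclei reached 942 CPM (487 to 1646) on 12 UMIs in the epilepsy library and 587 CPM (504 to 679.7) in the control library. Within the interneurons with Adarb2, the cluster led by Adra1a, Fgf13 and Sv2c held 1413 CPM (1162 to 1702) in epilepsy and 1176 CPM (1017 to 1353) in control, and the cluster led by Adarb2 and Dlx6os1 337 (234 to 471) and 256 CPM (188 to 341). The first of these clusters held the highest level of Gabbr2 of all groups with a value, and in the control library its interval lay above that of every other group. Interneurons without Adarb2 lay between the clusters, at 571 (457 to 704) and 431 CPM (361 to 511). Oligodendrocytes stood at 196 and 212 CPM, precursors at 64.6 and 115 CPM (2 and 3 UMIs), and astrocytes at 76.9 and 154 CPM (2 and 6 UMIs).

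Kctd8, an auxiliary subunit that binds GABA-B2, was an interneuron gene. It stood at 368 CPM (305 to 439) in epilepsy and 327 CPM (285 to 373) in control interneurons, and at 15.1 (12.1 to 18.6) and 11.9 CPM (9.85 to 14.3) in pyramidal nuclei, so that interneurons held 24.4-fold (18.4 to 32.4) and 27.4-fold (21.8 to 34.6) the pyramidal level. After thinning every nucleus to 1000 UMIs, 50% (36.1 to 63.9) of epilepsy and 34.6% (24.2 to 46.2) of control interneurons without Adarb2 had a UMI of Kctd8, against 1.86% (1.34 to 2.51) and 1.24% (0.857 to 1.72) of pyramidal nuclei. The thinned shares rest on 54 epilepsy and 78 control interneurons and 2209 and 2751 pyramidal nuclei, since shallower nuclei were left out. Without thinning the shares were 62.1% and 66.3% against 3.59% and 3.56%, at median depths of 2552 and 4093 UMIs against 2567 and 3575. Among interneurons the order was the same in both libraries, with no overlap of intervals between neighbours. Those without Adarb2 held 669 (546 to 813) and 502 CPM (426 to 587), the Adarb2 and Dlx6os1 cluster 179 (106 to 282) and 322 CPM (245 to 415), and the Adra1a and Sv2c cluster 25.5 and 6.00 CPM on 2 and 1 UMIs. Oligodendrocyte precursors also held Kctd8, at 291 (133 to 552) and 191 CPM (62.0 to 446) on 9 and 5 UMIs. Interneuron markers in these precursors summed to 37.6% of their interneuron level in the epilepsy library and 41.5% in the control library, and their part in the Kctd8 signal was not tested. In astrocytes Kctd8 had 0 UMIs in both libraries, with intervals that reached up to 142 CPM in epilepsy and 94.5 CPM in control.

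Kctd16, another auxiliary subunit, was the most deeply counted of the 8 genes and had its highest level in interneurons with Adarb2. These held 2576 CPM (2347 to 2822) in epilepsy and 3037 CPM (2857 to 3225) in control, against 617 (498 to 755) and 399 CPM (332 to 476) in interneurons without Adarb2, a ratio of 4.18-fold (3.34 to 5.27) and 7.61-fold (6.32 to 9.25). The Adra1a and Sv2c cluster was the highest of all, at 3195 (2812 to 3616) and 3853 CPM (3560.3 to 4162), followed by the Adarb2 and Dlx6os1 cluster at 2093 (1821 to 2396) and 2296 CPM (2082 to 2526). Kctd8 and Kctd16 thus had opposite orders across the 3 interneuron groups in the control library and in the epilepsy library. Pyramidal nuclei held 892 (868 to 917) and 1268 CPM (1245 to 1290.3), and granule nuclei 1571 (959 to 2426) and 1678 CPM (1535 to 1830.4). Kctd12, the auxiliary subunit linked to rapid desensitization, was at 1.54 CPM (0.706 to 2.93) on 9 UMIs in epilepsy and 3.70 CPM (2.59 to 5.12) on 36 UMIs in control pyramidal nuclei. Interneurons had 2 and 1 UMIs of it and oligodendrocytes 0 and 0, so no order over classes could be read at this depth.

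**Figure D2:**
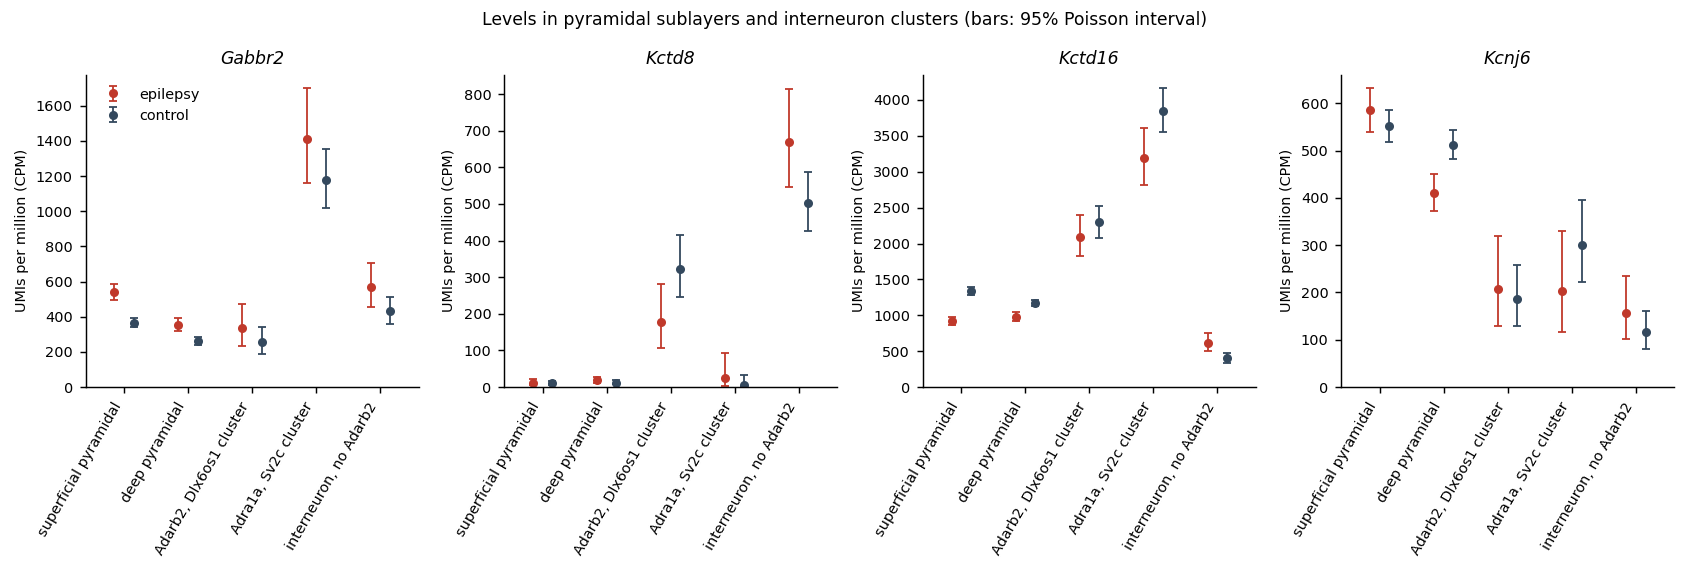
Level of 4 genes (y axis, CPM, linear from 0) in superficial and deep pyramidal nuclei, the 2 interneuron clusters with Adarb2 and the interneurons without it; epilepsy is red and left, control dark blue and right, and bars are 95% Poisson intervals. Kctd16 peaks in the Adra1a and Sv2c cluster (3195 and 3853 CPM), where Kctd8 is lowest among the interneurons.

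The channel genes Kcnj6 and Kcnj3 were lower in interneurons than in pyramidal nuclei. Kcnj6, which encodes GIRK2, stood at 184 CPM (141 to 236) in epilepsy and 182 CPM (151 to 217) in control interneurons, against 546 (528 to 566) and 537 CPM (523 to 552) in pyramidal nuclei, 2.97-fold (2.31 to 3.89) and 2.96-fold (2.47 to 3.57) lower. Granule nuclei held 1021 CPM (544 to 1746) on 13 UMIs and 795 CPM (697 to 901), in the control library above pyramidal nuclei with no overlap of intervals. Kcnj3, which encodes GIRK1, stood at 196 (151 to 249.8) and 278 CPM (239.6 to 322) in interneurons and 312 (298 to 327) and 419 CPM (406 to 432) in pyramidal nuclei. In granule nuclei Kcnj3 had 0 of 12734 UMIs in the epilepsy library, against 686 CPM (596 to 786) on 208 UMIs in the control library. The interval of this epilepsy level reached up to 290 CPM, below the control interval. These levels rest on 14 epilepsy nuclei with a median of 744 UMIs and 154 control nuclei with a median of 1994. No ratio between the conditions is given, because ratios needed 30 nuclei in each library. Kcnj9, which encodes GIRK3, was counted on few UMIs: 11.7 (9.06 to 14.8) and 17.1 CPM (14.6 to 19.9) in pyramidal nuclei, 1 and 6 UMIs in interneurons, and 0 UMIs and 29.7 CPM (13.6 to 56.3) in granule nuclei.

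In CA1 pyramidal nuclei Gabbr2 was higher in epilepsy, Kctd16, Kcnj3 and Kcnj9 were lower, and Kcnj6 was at nearly the same level in both libraries. Gabbr2 stood at 469.9 CPM in epilepsy and 336 CPM in control, 1.40-fold higher, with a log2 ratio of 0.48 (0.41 to 0.56). Gabbr1 stood at 211 and 189.9 CPM, a log2 ratio of 0.15 (0.05 to 0.26), beyond 0 but under the threshold used for counting, a difference of 0.32 on the log2 scale. Under trimmed-mean (TMM) scaling it was 0.07 (-0.04 to 0.17) and after thinning 0.12 (-0.06 to 0.31), both holding 0. The Kctd16 level was 892 CPM in epilepsy and 1268 CPM in control, 1.42-fold lower, with a log2 ratio of -0.51 (-0.55 to -0.46). Kcnj3 stood at 312 and 419 CPM, 1.34-fold lower, with a log2 ratio of -0.43 (-0.51 to -0.34). Kcnj9 followed in the same direction on few UMIs (68 and 166), with a log2 ratio of -0.55 (-0.98 to -0.13). The log2 ratio of Kcnj6 was 0.03 (-0.04 to 0.09) and that of Kctd8 was 0.34 (-0.08 to 0.75), both with intervals that hold 0. Kctd12 had a log2 ratio of -1.26 (-2.50 to -0.18) on 9 and 36 UMIs, under the 50 UMIs required for the counts. The median depth of pyramidal nuclei was 2567 UMIs in epilepsy and 3575 UMIs in control, and markers of activity (Fos, Npas4, Arc, Btg2, Egr1 and Junb) summed to 98.0 and 222 CPM; their part in the ratios was not tested.

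Of the 7 genes with at least 50 UMIs, 2 (Gabbr2 and Kctd8) were past this threshold upward in epilepsy pyramidal nuclei and 3 (Kctd16, Kcnj3 and Kcnj9) past it downward. Among all 11081 genes with at least 50 UMIs there, 17.7% were past it upward and 15.8% downward. Their median log2 ratio was 0.03, beside -0.00 over all genes. None of these 7 reached 1.5-fold in either direction, which 8.63% of all genes exceeded upward and 5.0% downward. The count of higher genes was 1, Gabbr2, when TMM scaling was used in place of the class total or when nuclei needed 500 detected genes.

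**Figure D3:**
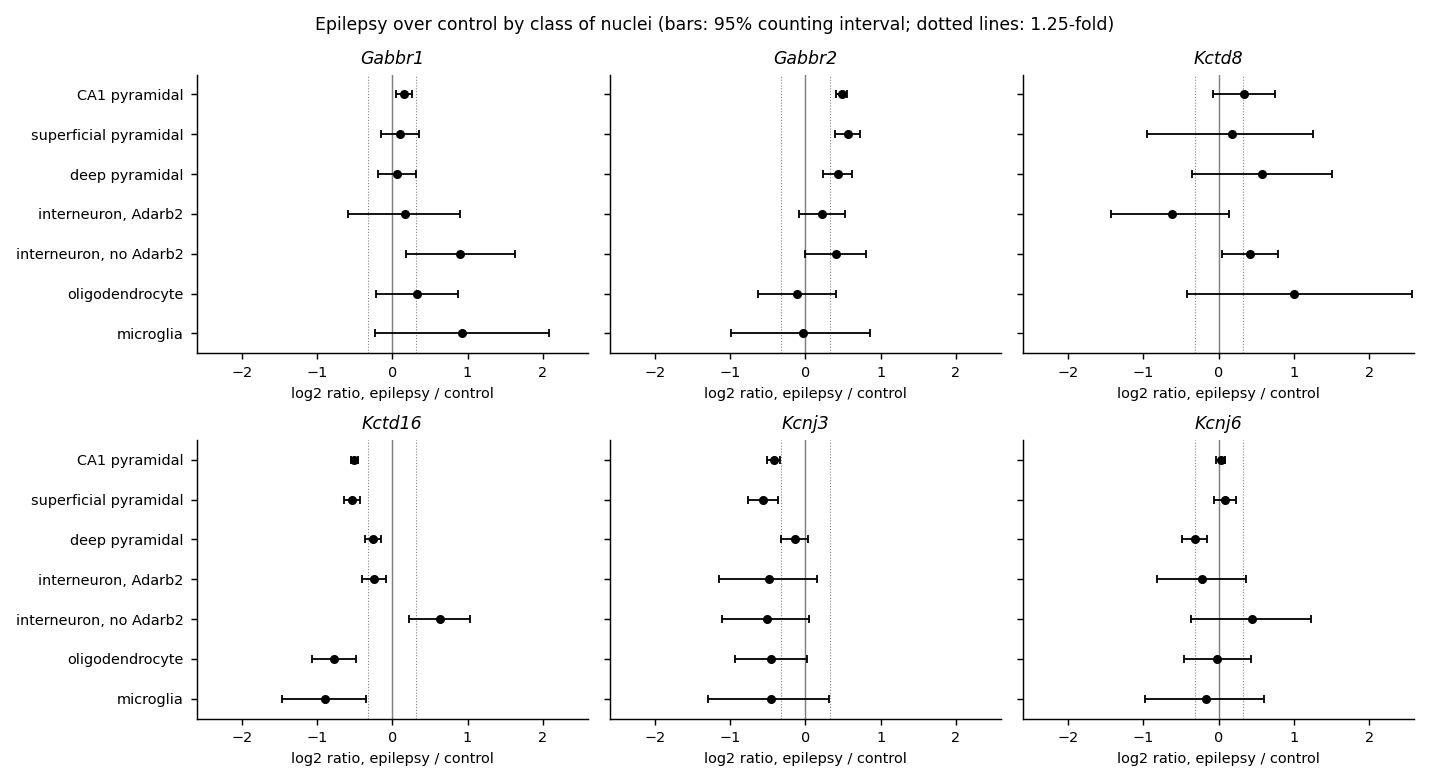
Log2 ratio of epilepsy to control (x axis) for 6 genes in 7 groups of nuclei (y axis); points are ratios of class sums, bars 95% counting intervals, and dotted lines mark the threshold of 0.32 either way. Gabbr2 lies right of 0 in the 3 pyramidal rows and Kctd16 left of 0 in every row except interneurons without Adarb2 (0.63).

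The differences of Gabbr2, Kctd16 and Kcnj3 were found across the pyramidal population, and those of Gabbr1 and Kcnj6 were not. In the 7 pyramidal subclusters with at least 30 nuclei in each library, Gabbr2 was higher in epilepsy in 7.00, with log2 ratios of 0.30 to 0.62 and all 7.00 intervals beyond 0. Its levels ran over 352 to 629 CPM in epilepsy and 262 to 451 CPM in control subclusters, so that subclusters of the 2 libraries overlapped. Kctd16 was lower in 7.00 of 7, with log2 ratios of -0.75 to -0.25 and 7.00 intervals beyond 0. Its levels of 689 to 981 CPM in epilepsy subclusters did not overlap the 1158 to 1417 CPM of control subclusters. Kcnj3 was lower in 7.00 of 7, with log2 ratios of -0.59 to -0.14, and its interval held 0 only in the deep subcluster led by Col11a1. Kcnj6 was lower in epilepsy in that deep subcluster, at -0.32 (-0.49 to -0.16), and higher in the subcluster led by Pcsk1, Tiparp, Nr4a3, Btg2 and Fos, at 0.29 (0.10 to 0.47), and its other 5 intervals held 0. Gabbr1 had an interval beyond 0 in 1 subcluster, led by Mkx, Tox and Grem1, at 0.43 (0.13 to 0.72). Subclusters of 1 library share its preparation and are not replicates.

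**Figure D4:**
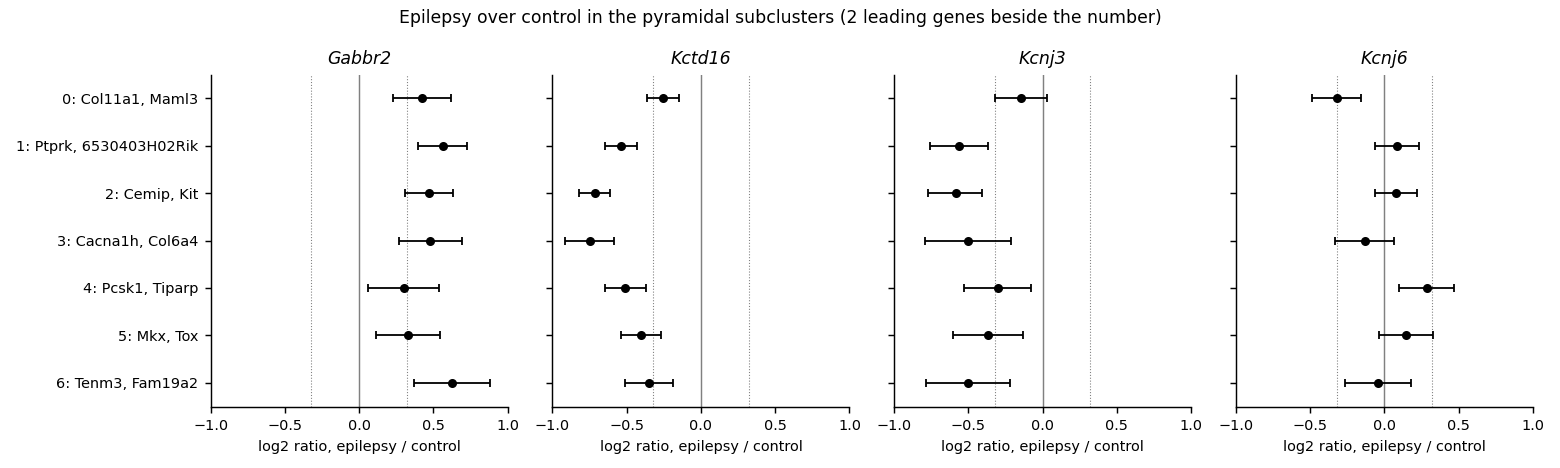
Log2 ratio of epilepsy to control (x axis) for 4 genes in the 7 pyramidal subclusters (y axis, numbered, with 2 leading genes each); points are ratios of sums, bars 95% counting intervals, and dotted lines mark the threshold of 0.32 either way. All 7 points lie right of 0 for Gabbr2 and left of 0 for Kctd16 and Kcnj3, while those of Kcnj6 lie on both sides.

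Deep nuclei were the subcluster with high Ndst4, led by Col11a1, and superficial nuclei the subcluster with low Ndst4 and with higher Calb1, the calbindin gene, and Epha3, led by Ptprk. The other 1530 epilepsy and 1765 control pyramidal nuclei were placed in neither sublayer. Gabbr2 was higher in superficial than in deep nuclei of both libraries, and deep nuclei were the lowest of the 7 subclusters with enough nuclei. Nuclei of neither sublayer held 482 CPM of Gabbr2 in epilepsy and 353 CPM in control. Among them the subcluster led by Cacna1h was the highest of the 7, at 629 and 451 CPM. Superficial pyramidal nuclei (409 epilepsy and 510 control nuclei) held 541 CPM (497 to 587) in epilepsy and 367 CPM (339 to 395) in control, and deep nuclei (400 and 566) 352 (317 to 390.4) and 262 CPM (241 to 286). The log2 ratio of superficial to deep was 0.62 (0.43 to 0.81) in the epilepsy library and 0.48 (0.32 to 0.65) in the control library, with no overlap between the sublayers of a library. After thinning, the control ratio was 0.26 (-0.06 to 0.57), which held 0. Over all settings the ratio ran from 0.24 to 0.66 in the epilepsy library and from 0.19 to 0.54 in the control library. Of 5 members with at least 50 UMIs in the epilepsy library, 2 (Gabbr2 and Kcnj6) were past 0.32 upward in superficial nuclei and 1 (Kcnj3) downward, beside 29.2% and 18.8% of all 5184 genes. Of 6 in the control library, 2 (Gabbr2 and Kcnj9) were past it upward and 0 downward, beside 22.2% and 16.5% of all 7135 genes. Gabbr1 had no such difference, with log2 ratios of 0.02 (-0.26 to 0.31) and -0.01 (-0.23 to 0.20). Kctd8 and Kcnj9 were counted on 10 to 33 UMIs per sublayer and library, and their intervals held 0 in both libraries.

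For Kctd16 and Kcnj3 the difference between the conditions was larger in superficial than in deep nuclei, and that of Kcnj6 varied with how the sublayers were drawn. Deep nuclei had the smallest difference in both genes among the 7 subclusters with enough nuclei. The largest log2 ratios downward, -0.75 for Kctd16 and -0.59 for Kcnj3, lay in subclusters of neither sublayer. Nuclei of neither sublayer held 859 CPM of Kctd16 in epilepsy and 1279 CPM in control, and 302 and 420 CPM of Kcnj3. Kctd16 stood at 923 CPM in epilepsy and 1339 CPM in control superficial nuclei, a log2 ratio of -0.54 (-0.65 to -0.43), and at 981 and 1169 CPM in deep nuclei, a log2 ratio of -0.25 (-0.36 to -0.15). The superficial minus deep difference of these ratios was -0.28 (-0.43 to -0.13). Kcnj3 stood at 289 and 427 CPM in superficial nuclei, with a log2 ratio of -0.56 (-0.76 to -0.37), and at 371 and 409 CPM in deep nuclei, with a ratio of -0.14 (-0.32 to 0.03) whose interval held 0. The difference was -0.42 (-0.68 to -0.16), and the superficial to deep ratio of Kcnj3 was -0.36 (-0.58 to -0.14) in the epilepsy library and 0.06 (-0.08 to 0.20) in the control library. Kcnj6 stood at 585 and 552 CPM in superficial nuclei and at 410.2 and 512 CPM in deep nuclei, with log2 ratios of 0.08 (-0.06 to 0.23) and -0.32 (-0.49 to -0.16) and a difference of 0.41 (0.19 to 0.62). The difference of Kcnj6 was 0.13 with at least 500 detected genes, 0.11 at a coarser clustering and 0.10 with a split at the median marker score, each with an interval that held 0, and so did the deep ratio of Kcnj6 at these settings, -0.14 (-0.28 to 0.01), -0.12 (-0.24 to 0.01) and -0.05 (-0.15 to 0.05). For Gabbr2 the ratio of epilepsy to control was 0.56 (0.40 to 0.72) in superficial and 0.43 (0.23 to 0.62) in deep nuclei, and their difference of 0.14 (-0.11 to 0.39) held 0. After thinning, the deep ratio of Gabbr2 was 0.32 (-0.01 to 0.65), which held 0. Of 6 genes with enough UMIs, 1 (Gabbr2) was past the threshold upward and 2 (Kctd16 and Kcnj3) downward in superficial epilepsy nuclei (background 17.8% and 16.4%), and of 5 in deep nuclei 1 (Gabbr2) was past it upward and 0 downward (background 15.4% and 21.2%), Kcnj6 lying just inside it.

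In interneurons Kcnj3 was lower in epilepsy, and both receptor subunits were higher, with intervals that left out 0 in the class sums but not under every scaling. Gabbr1 stood at 178 CPM on 59 UMIs in epilepsy and 123 CPM on 81 UMIs in control, a log2 ratio of 0.54 (0.03 to 1.04). Gabbr2 stood at 699 and 570.4 CPM, with a log2 ratio of 0.29 (0.05 to 0.53), and Kcnj3 at 196 and 278 CPM, with a ratio of -0.51 (-0.94 to -0.09). Under TMM scaling the receptor subunits were at 0.47 (-0.04 to 0.97) and 0.23 (-0.01 to 0.47), both holding 0, as did Gabbr1 with doublets kept, at 0.45 (-0.03 to 0.93). Thinning moved Gabbr1 to 1.19 (0.30 to 2.12). The log2 ratios of Kctd8, at 0.17 (-0.16 to 0.50), Kctd16, at -0.10 (-0.25 to 0.05), and Kcnj6, at 0.02 (-0.45 to 0.47), had intervals that held 0. Of the 6 genes with at least 50 UMIs, 1 (Gabbr1) was past the threshold upward and 1 (Kcnj3) downward, beside 16.9% and 19.5% of all 3390 genes. Set against pyramidal nuclei, the ratio of Kctd16 differed, with an interneuron minus pyramidal difference of 0.41 (0.25 to 0.56), and those of the 2 receptor subunits did not leave 0: 0.38 (-0.11 to 0.88) for Gabbr1 and -0.19 (-0.44 to 0.06) for Gabbr2.

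Kctd16 had opposite directions in the 2 kinds of interneuron, though the ratio without Adarb2 did not keep an interval beyond 0 under every alternative. In those with Adarb2 it stood at 2576 CPM in epilepsy and 3037 CPM in control, a log2 ratio of -0.24 (-0.40 to -0.08), and in those without Adarb2 at 617 and 399 CPM, on 94 and 124 UMIs, a log2 ratio of 0.63 (0.23 to 1.03). The difference between these ratios was -0.87 (-1.28 to -0.45). After thinning, the ratio without Adarb2 was 0.57 (-0.17 to 1.32), which held 0. At a coarser clustering the ratio labelled with Adarb2 was -0.10 (-0.25 to 0.05), the same as that of all interneurons. That value therefore does not describe nuclei with Adarb2 on their own. Kctd8 likewise stood at 112 and 171 CPM with Adarb2 and at 669 and 502 CPM without it, with log2 ratios of -0.62 (-1.43 to 0.13) and 0.42 (0.04 to 0.78) and a difference of -1.04 (-1.85 to -0.22). The Kctd8 ratio of interneurons with Adarb2 rested on 20 and 60 UMIs and was 0.53 after thinning to 1000 UMIs, on the other side of 0. Without Adarb2 it held 0 under TMM scaling, at 0.34 (-0.04 to 0.71), and after thinning, at 0.42 (-0.26 to 1.09). Gabbr1 had a log2 ratio of 0.90 (0.18 to 1.63) without Adarb2 and 0.17 (-0.58 to 0.90) with it, and the interval of the difference, -0.73 (-1.70 to 0.24), held 0. Thinning moved these to 1.34 (-0.02 to 2.80) and 1.08 (-0.15 to 2.38), both holding 0. Markers of interneurons without Adarb2 (Lhx6, Sst, Pvalb, Sox6 and Satb1) summed to 768 CPM in epilepsy and 856 CPM in control nuclei of that group, markers of the other group to 715 and 721 CPM, and pyramidal markers to 984 and 952 CPM. Whether the subtypes within each group are mixed in the same shares in both libraries was not tested.

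Glial nuclei held UMIs of Gabbr1, Gabbr2, Kctd16, Kcnj3 and Kcnj6, together with UMIs of pyramidal markers. In oligodendrocytes the levels of these 5 genes lay at 41.7% to 98.9% of the pyramidal level in epilepsy and 51.8% to 87.6% in control, with pyramidal markers at 51.2% and 59.1%. In microglia they lay at 64.1% to 126% and 73.5% to 117%, with pyramidal markers at 64.6% and 85.5%. The median depth of microglia was 745 UMIs in epilepsy and 3002 UMIs in control, and its part in their ratios was not tested. How far glia themselves express these genes was not resolved. Kctd16 stood at 493 CPM (418 to 579) in epilepsy and 844 CPM (748 to 949) in control oligodendrocytes, a log2 ratio of -0.77 (-1.07 to -0.48), and at 655 and 1216 CPM in microglia, a ratio of -0.89 (-1.46 to -0.35). Both had the direction of the pyramidal nuclei, and the differences from the pyramidal ratio, -0.27 (-0.56 to 0.02) for oligodendrocytes and -0.39 (-0.92 to 0.15) for microglia, held 0. Kcnj3 had a log2 ratio of -0.46 (-0.94 to 0.01) in oligodendrocytes. Gabbr2 differed from its pyramidal ratio in oligodendrocytes, with a log2 ratio of -0.11 (-0.63 to 0.41) and an oligodendrocyte minus pyramidal difference of -0.59 (-1.10 to -0.09). Of the 5 genes with at least 50 UMIs in oligodendrocytes, 1 (Gabbr1) was past the threshold upward and 2 (Kctd16 and Kcnj3) downward, beside 19.7% and 19.2% of all 2362 genes, and of the 3 with as many in microglia 0 were past it upward and 2 (Kctd16 and Kcnj3) downward, beside 19.7% and 33.9% of all 446 genes. In astrocytes Kcnj6 had 1 UMI in epilepsy and 14 in control, where pyramidal markers stood at 14.9% and 48.7% of the pyramidal level.

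The pathway around the receptor was followed through 68 further genes, of which 45 had at least 50 UMIs in pyramidal nuclei. Of these, 7 were past the threshold upward in epilepsy, 8 downward and 30 between, with a median log2 ratio of 0.05, beside 17.7% upward and 15.8% downward among all genes. Counting genes past the threshold, GABA-B binding proteins had 2 of 4 higher and 0 lower. Ajap1, which binds GABA-B1 at its sushi domains, stood at 117 CPM in the epilepsy library and 85.3 CPM in the control library, a log2 ratio of 0.45 (0.30 to 0.60). G protein subunits had 0 of 13 higher and 3 lower, among them the gamma subunit Gng2, at 108 CPM in the epilepsy library and 149.7 CPM in the control library, a log2 ratio of -0.47 (-0.60 to -0.33). Gnb4, a beta subunit, had a log2 ratio of -1.29 at a pyramidal level of 2.06 and 5.04 CPM. RGS proteins, which speed the shutdown of G proteins, and their partners had 2 of 8 higher and 1 lower, with Rgs20 at 25.4 CPM in the epilepsy library and 14.1 CPM in the control library, a log2 ratio of 0.85 (0.51 to 1.20). Other effectors and regulators had 1 of 13 higher and 2 lower: the adenylyl cyclases, which Gi/o proteins inhibit, lay on both sides, with Adcy5 at a log2 ratio of 0.44 and Adcy8 at -0.55. Prkaa1, a subunit of the AMP-activated kinase, had a log2 ratio of -0.38 (-0.775 to -0.004).

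Other receptors that signal through Gi/o proteins had 2 of 6 higher and 1 lower in epilepsy pyramidal nuclei, and the inward rectifiers outside the GIRK family had 1 gene with enough UMIs, which was lower. The opioid receptor Oprd1 stood at 9.61 CPM in the epilepsy library and 2.98 CPM in the control library, a log2 ratio of 1.69 (1.02 to 2.39), and Oprm1 at 9.44 CPM in the epilepsy library and 3.39 CPM in the control library, a log2 ratio of 1.48 (0.83 to 2.14). In interneurons Oprd1 stood at 112 CPM in epilepsy and 121 CPM in control, and Oprm1 at 84.4 and 80.2 CPM, so that the pyramidal levels were 8.61% and 2.46% of these for Oprd1 and 11.2% and 4.23% for Oprm1. Interneuron markers summed to 82.2 CPM in epilepsy and 54.5 CPM in control pyramidal nuclei; the part of interneuron RNA was not tested. Gnb4 stood higher in oligodendrocyte precursors, at 96.9 CPM on 3 UMIs in epilepsy and 306 CPM on 8 UMIs in control. The other 6 pathway genes past the threshold were chosen for naming after their values were seen. Upward they were Rgs6 at 0.58 (0.05 to 1.11) and Pianp at 0.35 (0.04 to 0.66). Downward they were Npy2r at -0.34 (-1.04 to 0.34), Rgs2 at -0.37 (-1.21 to 0.43), Gng4 at -0.48 (-1.15 to 0.15) and Kcnj4 at -0.54 (-1.31 to 0.18), each with an interval that held 0. In interneurons 5 of 29 pathway genes were past the threshold upward and 3 downward, beside 16.9% and 19.5% of all genes there. Rgs6, which forms a complex with the beta subunit Gnb5, stood at 714 CPM in the epilepsy library and 558 CPM in the control library, a log2 ratio of 0.36 (0.11 to 0.60). Nsf, an ATPase of membrane fusion, had a log2 ratio of 0.44 (0.17 to 0.72) and the calcium channel gene Cacna1e 0.59 (0.02 to 1.17). The interneuron level of Cacna1e was 9.50% of the granule level in epilepsy and 7.04% in control. The muscarinic receptor Chrm2, which also opens GIRK channels, stood at 159.8 CPM in the epilepsy library and 313 CPM in the control library, a log2 ratio of -0.97 (-1.43 to -0.53).

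**Figure D5:**
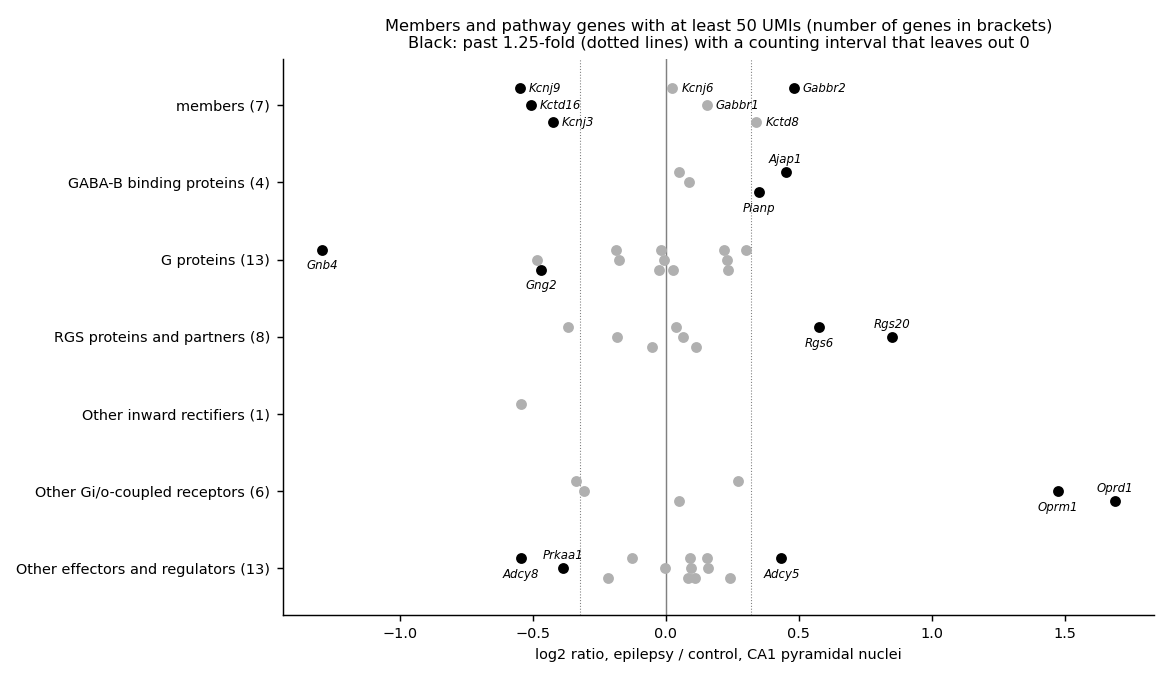
Log2 ratio of epilepsy to control in CA1 pyramidal nuclei (x axis) for the measured members and the pathway genes by list (y axis, number of genes in brackets); black points are past 0.32 either way (dotted lines) with a counting interval that leaves out 0, and grey points are the rest. Oprd1 and Oprm1 lie farthest right (1.69 and 1.48) and Gnb4 farthest left (-1.29).

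Across the 7 classes of both libraries (14 values per gene, Pearson r of log2(CPM + 10), among 7457 genes), the most similar genes were Ttc3 (0.96), Bsn (0.95) and Kcnh1 (0.95) for Gabbr2 and Grin2b (0.92), Tspan5 (0.92) and Ptpn1 (0.92) for Gabbr1. For Kctd8 they were Fstl5 (0.95), Afap1 (0.94) and Rnf144b (0.93), and for Kctd16 Cyth3 (0.94) and Syt1 (0.93). Kcnj6 was most like St6galnac5 (0.98), Tmtc1 (0.97) and Camk2a (0.97), Kcnj3 like Tnrc6c (0.95), Matk (0.93) and Fer (0.92), and Kcnj9 like Panx2 (0.93), Slc35a1 (0.92) and Ctxn1 (0.92). Between members, Gabbr2 and Kctd16 had an r of 0.91, Gabbr1 and Gabbr2 0.60, and Kctd8 and Kcnj6 -0.54. The points share 2 libraries, class depths and UMIs of pyramidal markers, so these values describe the profiles only.

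Both receptor subunits were detected together in 26.4% (24.6 to 28.3) of epilepsy and 30.8% (29.1 to 32.6) of control pyramidal nuclei. After thinning to 1000 UMIs these shares were 7.20% (6.15 to 8.36) and 5.38% (4.57 to 6.29), beside 3.85% (0.469 to 13.2) and 5.71% (1.58 to 14.0) in the 52 and 70 oligodendrocytes deep enough, a class whose median depth before thinning was 612 and 842 UMIs. Joint detection in single nuclei was thus not resolved from background at this depth.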

How the data were processed

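The deposited files hold raw UMI counts per gene and nucleus, as whole numbers with no normalization, 1 matrix per library. Per the submitters' processing notes, the authors used FastQC and Cell Ranger 2.2.0 with GRCm38 (mm10); the annotation, the counting of introns and the selection of barcodes are not given in the sources used here. Per the labels' protocols, 15000 sorted nuclei were loaded per sample (10x Genomics 3' chemistry). Groups came from the condition label. Nuclei needed 200 detected genes and under 5% mitochondrial UMIs, which removed 0. Scrublet's automatic threshold marked 3 epilepsy and 4 control nuclei, so the 3% with the highest scores were removed (92 and 110). Counts were scaled to 10000 UMIs, and 2000 variable genes, members and pathway genes left out, were put on 1 scale per library and clustered on 30 principal components (20 neighbours, resolution 1.0) with scanpy 1.11.5 and leidenalg 0.10.2 in Python 3.11.15. A class needed 3 markers at 20 CPM and 2-fold. Interneurons counted as with Adarb2 where their cluster's level of that gene was at least 0.25 of the level over all interneurons, and pyramidal subclusters as deep with Ndst4 at least 2-fold above the other pyramidal nuclei, Calb1 below them and Col11a1 or Nr4a2 1.25-fold above, and as superficial with Ndst4 at least 2-fold below, Calb1 above and Epha3 or Syt17 1.25-fold above. Counts were summed per class and library; levels carry exact Poisson intervals, ratios exact conditional binomial intervals, shares Clopper-Pearson intervals and differences of ratios normal intervals on the counting variance. Ratios needed 30 nuclei in each library and 20 UMIs in all. UMIs remove PCR duplicates, and intervals cover counting error only. The interval code was tested on simulated data. Members and lists were chosen with earlier results of these data known, and the rules for naming classes and sublayers were set after the clusters had been seen. All 8 members are named; from the pathway list, the 5 highest and 5 lowest genes in pyramidal nuclei and 3 and 3 in interneurons past 1.25-fold with an interval beyond 0, ranked by the bound nearest 0, and for each member the 3 most similar genes, of which 1 is not reported here. Alternatives covered nuclei with at least 500 genes, doublets kept, clustering settings, scaling (with TMM computed by edgeR 4.0.16 under R 4.3.3), weighting, thinning to 1000 UMIs, the fold and the UMI minimum. Promoter windows came from RefSeq (GRCm38.p6) and gene positions from GENCODE M21.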

Additional observations from a re-analysis of the deposited data

Results flagged for a closer look

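Kctd16 was higher in epilepsy in interneurons without Adarb2, with a log2 ratio of 0.63 (0.23 to 1.03). Its ratio lay below 0 with an interval that left out 0 in 10 other groups of nuclei. These were pyramidal subclusters, oligodendrocytes, microglia and interneurons with Adarb2, the last at -0.24 (-0.40 to -0.08). Kcnj6 was higher in epilepsy in the pyramidal subcluster led by Pcsk1, Tiparp and Nr4a3, at 0.29 (0.10 to 0.47), and lower in the deep subcluster, at -0.32 (-0.49 to -0.16). After thinning, the Kctd16 ratio without Adarb2 was 0.57 (-0.17 to 1.32), which held 0. At a coarser clustering the ratio labelled with Adarb2 was that of all interneurons, -0.10 (-0.25 to 0.05), and does not describe nuclei with Adarb2 alone. The interval of the deep Kcnj6 ratio held 0 with at least 500 detected genes, at a coarser clustering and with a split at the median marker score. In both cases the groups differed in direction, and with 1 library per condition the difference was not tested.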

How the results depend on the processing

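Over 13 alternatives, 73 of 79 values of counts and medians and 685 of 726 single-gene values stayed within their counting interval or count limits. Of the 29 single-gene ratios with an interval beyond 0, 0 changed sign and 11 had an interval that held 0 under at least 1 alternative, while 54 values of ratios whose interval held 0 lay on the other side of 0. Among the 11, Kctd16 in interneurons with Adarb2 held 0 only at a coarser clustering, where its value equalled that of all interneurons. In pyramidal nuclei 1 member was past the fold threshold upward with at least 500 detected genes and 1 under TMM factors, against 2 otherwise, and at 1.5-fold 0 were higher and 0 lower, against 2 and 3 otherwise. With at least 200 UMIs, 4 pathway genes were higher and 3 lower, against 7 and 8. TMM factors moved all log2 ratios by -0.09 in pyramidal nuclei, -0.07 in interneurons and -0.29 in microglia, which left Gabbr2 at 0.40, Kctd16 at -0.59, Kcnj3 at -0.51 and Kcnj6 at -0.06 in pyramidal nuclei. Thinning to 1000 UMIs gave a log2 ratio of 1.19 for Gabbr1 and 0.67 for Gabbr2 in interneurons. The cause of these shifts was not tested. No paired analysis was possible because each condition has 1 library, and for the same reason no replicate could be left out. The change of fold was applied to the counts of members and the change of the UMI minimum to counts and medians. With 1 library per condition, differences between mice, dissections or library preparations cannot be told apart from the condition, and Kctd12, Kcnj9 and all genes in astrocytes, precursors and epilepsy granule nuclei were limited by depth.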
